A study of Mus musculus with 16 samples.

Results

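The mRNA response of wild-type macrophages to bacterial lipopolysaccharide (LPS) was read from the 3′UTRs of 4 Input samples of 16 in the series, which form 1 untreated and 1 LPS-treated library of 2 sequencing lanes each. Bone marrow-derived macrophages (BMDMs) are primary cells that were grown for a week from femoral marrow of adult mice of the C57BL/6J 129 strain, with L-cell medium as the source of the growth factor M-CSF. The wild-type samples carry the number 76 in their titles, and what it numbers is not stated. The cells were either left untreated or given 10 ng/ml LPS of E. coli 0111:B4 for 9 h. Input is the RNA of the cell lysate before the immunoprecipitation of CPEB4, a protein that binds cytoplasmic polyadenylation elements (CPEs) in 3′UTRs. The cells had been crosslinked with formaldehyde and sonicated, and ribosomal RNA was depleted before library preparation. The other genotype, CPEB4 KO with the number 73, comes from mice that lack Cpeb4 in all cells per the study's methods. It gave an untreated and an LPS Input of its own, which are used here only as values beside those of the wild type. Each side of the comparison is 1 library, so no difference below has a replicate check and no p-value is given. In a bulk lysate, fewer cells expressing a gene and less of its mRNA per cell cannot be told apart.

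LPS is sensed by TLR4 with its co-receptors CD14 and MD-2. The adaptors MyD88 and TRIF pass the signal to NF-κB, to the MAP kinases and to the interferon regulatory factors, and interferon-β made by the cell then acts back on it through JAK and STAT proteins. Many of the induced mRNAs carry AU-rich elements (AREs), repeats of the pentamer AUUUA in the 3′UTR, through which proteins such as TTP and HuR set their stability. The later response holds feedback inhibitors, antiviral genes and enzymes of a changed metabolism.

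The 3′UTRs that carry these elements are shown first, since their reads open the results. Among the 15 genes with the largest rise, 12 held at least 1 AUUUA. Of all 4981 genes compared below, 1262 held none, so that most genes carry the pentamer whether they rise or not. The following 6 of the 15 held the most of them per length. Each line gives 30 bases of the mRNA strand in GRCm38.p6 around the stretch with the most of them, with AUUUA in capitals.
Il1b: uuaccuAUUUAUUUAuguAUUUAuugauug
Il12b: AUUUAaguaAUUUAuguAUUUAuuaAUUUA
Nos2: acagauAUUUAuacuucauAUUUAagaaaa
Ptgs2: auAUUUAUUUAUUUAugugaagaAUUUAau
Cd38: cuuuccucAUUUAUUUAUUUAauugagcuu
Il1a: cuauguAUUUAuaaauauAUUUAugauaau
The Il1b window lies at chr2:129364801-129364830 on the minus strand, that of Ptgs2 at chr1:150105796-150105825 on the plus strand and that of Il12b at chr11:44413473-44413502 on the plus strand. More AUUUA per length were found in 3 higher genes that the study follows, Cxcl2 (chr5:90905328-90905357, plus strand), Cxcl1 (chr5:90892607-90892636, plus strand) and Tnf (chr17:35199677-35199706, minus strand).
Cxcl2: AUUUAUUUAucuauguAUUUAUUUAUUUAu
Cxcl1: uccuAUUUAUUUAuguAUUUAUUUAuucca
Tnf: uAUUUAuuAUUUAUUUAuuAUUUAUUUAuu
The same pentamers occurred in the genes with the largest fall, all 15 of which held at least 1, and the 2 with the most per length were Reps2 (chrX:162417042-162417071, minus strand) and Cd300a (chr11:114901941-114901970, plus strand).
Reps2: agcauuAUUUAUUUAaagaAUUUAuaauuc
Cd300a: aaaaaagauuAUUUAUUUAuuauauguaag
The regions of the 15 falls had a median length of 3411 bases and those of the 15 rises 1182 bases, so that a count of pentamers alone does not compare them.

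The files held 30622 regions with a gene symbol, from which the region with the most reads was taken for each of 14925 symbols. The untreated library held 929054 reads in regions with a symbol and the LPS library 1897360, that is 2.04 times as many, and each library was scaled to its own sum. A gene was compared where the 2 libraries together held at least 50 reads, which left 4981 genes. The ratio of LPS over untreated was taken with 1 read added to each library, and its 95% interval is the exact binomial (Clopper-Pearson) interval of the unchanged reads, which covers counting error only. A gene was called higher or lower where the log2 ratio passed 1 or -1, that is 2-fold. By that rule 742 genes, 14.9% of those compared, were higher after LPS and 630 genes, 12.6%, were lower. The whole interval lay past 2-fold for 432 genes (8.67%) on the higher side and for 311 genes (6.24%) on the lower side. The median log2 ratio was -0.03, and the central 90% of genes lay between -1.63 and 2.25. The rises reached further than the falls, with 154 genes past a log2 ratio of 3 on the higher side and 51 on the lower side. The values next to the threshold lay close together, at 1.001 and 0.9996 for the higher genes and at -1.001 and -0.998 for the lower ones.

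**Figure D1:**
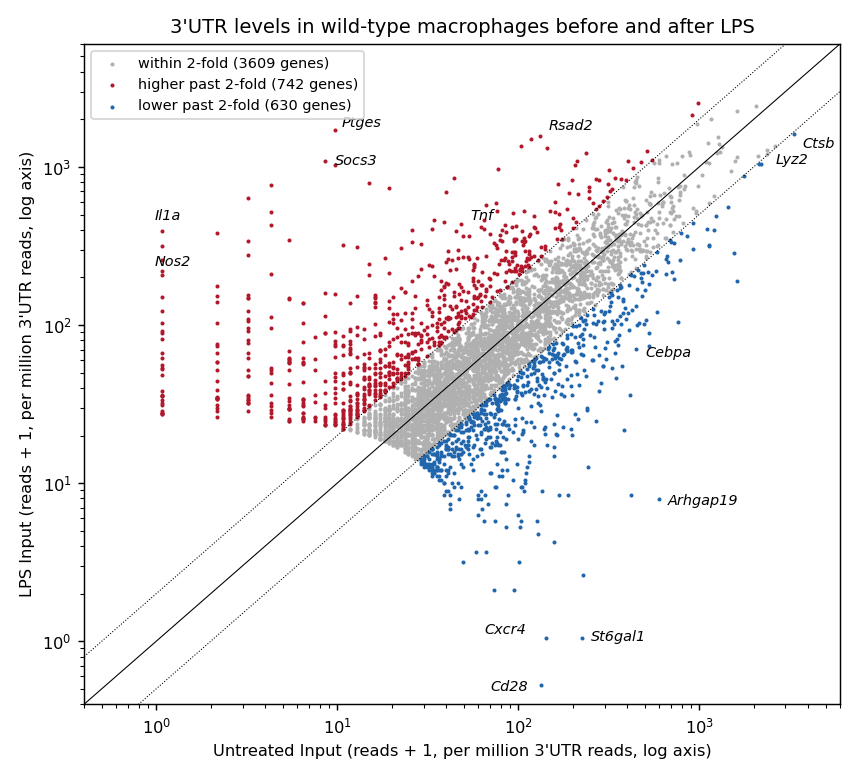
Level of each of 4981 3′UTRs in the untreated (x axis) and the LPS-treated (y axis) wild-type Input, in RPM (reads scaled to the sum of the library, after 1 read was added) on log axes. The solid line marks equal levels and the dotted lines 2-fold. The 742 higher genes reach far up on the left, where untreated reads are near 0, and the 630 lower genes spread less far to the lower right.

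The read minimum weighs unequally on both sides. A gene with no read on the other side had to reach 53.8 RPM (reads scaled to the sum of the library) to be compared when it was expressed in untreated cells only, but 26.4 RPM when it was expressed after LPS only. At most 3 untreated reads were found for 95 of the compared genes, 29 of them with 0, and these passed the minimum through their LPS reads alone. At most 3 reads after LPS were found for 5 compared genes, 1 of them with 0.

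The largest rise by the lower end of its interval belonged to Ptges, the microsomal prostaglandin E synthase, whose reads went from 8 untreated to 3241 after LPS (log2 ratio 7.46, 95% interval 6.65 to 8.85). Ptgs2, which encodes the cyclooxygenase upstream of it, went from 1 read to 723 (7.47, 5.99 to 13.77). Both genes of inducible prostaglandin E2 synthesis thus held few reads in the untreated library. In the wider prostaglandin and leukotriene list 2 of 5 were higher, these 2, against 14.9% of all genes, and 2 were lower, against 12.6%. The lower ones were Alox5ap (-1.17) and Hpgds, at 67 and 68 reads (-1.01). The other 3 scalings gave 3 higher and 1 lower, with Hpgds within 2-fold and Ptges3 (0.96) past it. Acod1, which makes itaconate from cis-aconitate, rose from 2 reads to 1213 (7.63, 6.36 to 11.26), and Nos2, the inducible nitric oxide synthase, had 0 reads untreated and 598 after LPS, which is at least 97.6-fold higher when the empty library is set to a floor of 3 reads. This floor is a 1-sided limit, and the near end of the 2-sided interval lies a little closer to 0, at a log2 ratio of 6.31 for Nos2, 6.63 for Il1a and 5.69 for Il12b. The arginine transporter Slc7a2 rose from 8 to 1955 reads (6.73, 5.92 to 8.12) and the cystine transporter Slc7a11 from 3 to 819 (6.65, 5.51 to 9.34). Among the cytokines, Il1a had 0 and 750 reads (at least 122-fold), Il12b 0 and 391 (at least 63.8-fold), and Il1b 3 and 983 (6.91, 5.77 to 9.61). Socs3, an inhibitor of JAK-STAT signalling, went from 7 to 2056 reads (6.98, 6.12 to 8.48). Others were the NAD hydrolase Cd38 with 0 and 489, the actin bundler Fscn1 with 0 and 415, the guanylate-binding protein Gbp5 with 2 and 642, and Lcn2, an iron-scavenging lipocalin, with 0 and 283.

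The largest fall belonged to St6gal1, a sialyltransferase of the Golgi, with 209 reads untreated and 1 after LPS (-7.74, -14.05 to -6.24). Cd28, known as a costimulatory receptor of T cells, went from 123 reads to 0, at least 83.7-fold lower by the same floor, with the near end of the interval at -6.07. No T cell marker accompanied it: the 6 of the T and NK cell list found in the files, Cd3e and Cd3d among them with 0 reads, held 3 reads in all untreated and 7 after LPS. Cxcr4, the receptor of the chemokine CXCL12, fell from 131 reads to 1 (-7.07, -13.38 to -5.56), and Plau, the urokinase plasminogen activator, from 210 to 4 (-6.43, -8.63 to -5.37). Arhgap19, a GTPase-activating protein, had 556 and 14 reads (-6.24, -7.22 to -5.58). The remaining 10 of the 15 were Rnf150, Sh3pxd2a, Tns1, Reps2, Rgs2, Nav2, Cd300a, Wwp1, Nptx1 and Gcnt1, whose log2 ratios ran from -5.63 to -4.15. Rnf150 and Wwp1 overlap an exon of another annotated gene, and the counting is not stated to have used strand, so that reads of both genes cannot be told apart there. The same holds below for Il27, Nfkb2, Dusp3, Csf1r, Stab1, Stat3, Gbp7, Psme1, Bnip3, Scd2, Npc1, Cfb, Ctsb and Ctsd.

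**Figure D2:**
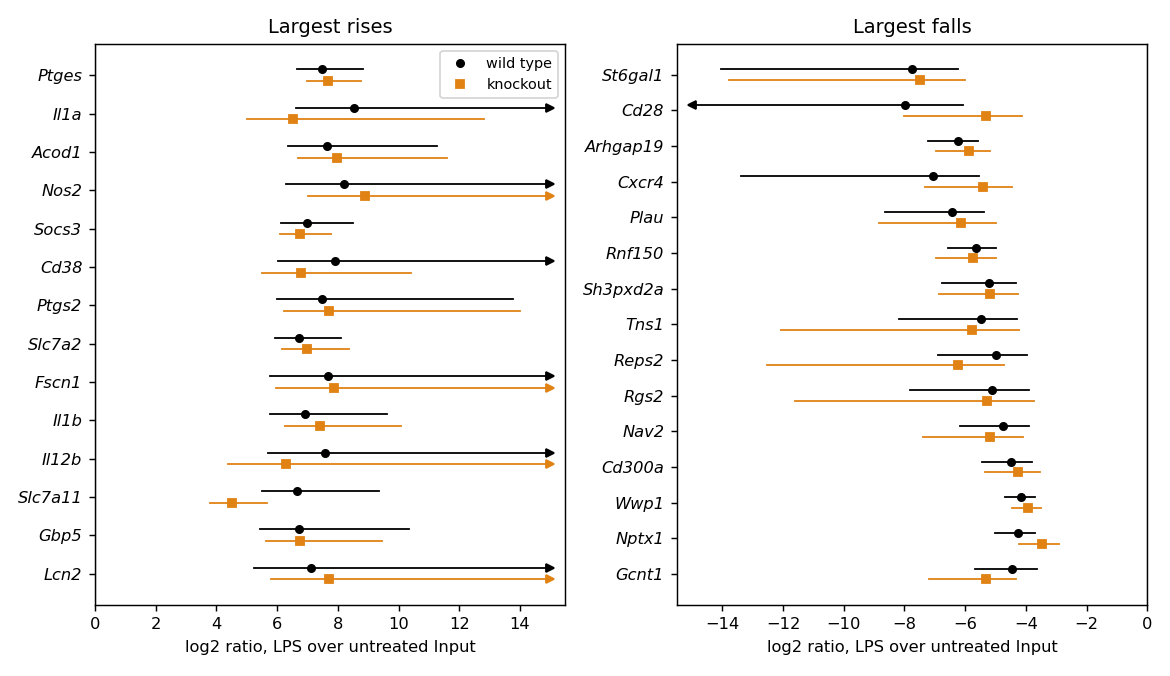
Log2 ratio of LPS over untreated Input for 14 of the 15 genes with the largest rise (left) and the 15 with the largest fall (right) in wild type, with the knockout Inputs beside them. Points are ratios with 1 read added, bars are 95% exact counting intervals, and an arrow marks an interval with no outer end because a library held 0 reads. Wild-type and knockout intervals overlap for all 29 genes drawn.

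The knockout Inputs share no sample with the wild-type ones. They differ in genotype and in the number of their titles and are not replicates. In that pair 5010 genes were compared, of which 13.6% were higher and 17.4% lower after LPS. Of the 742 genes higher in wild type, 677 had enough reads in the knockout pair and 523 of them, 77.3%, were higher there too. None of the 677 was lower in the knockout. Of the 630 lower genes, 613 had enough reads and 503, 82.1%, were lower in the knockout, with none higher. Read from the other side, 79.4% of the 659 genes higher in the knockout and compared in wild type were higher in wild type, and 66.1% of the 761 lower ones were lower. All 15 named rises and all 15 named falls passed 2-fold in the same direction in the knockout, and the intervals of both genotypes overlapped for each. Slc7a11 came closest to separating, at 6.65 (5.51 to 9.34) in wild type against 4.53 (3.79 to 5.67) in the knockout. Whether the genotypes differ was not tested.

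Of the 16 pro-inflammatory cytokines found, 8 had enough reads and all 8 were higher, against 14.9% of all genes. However, 5 of them had at most 3 untreated reads and passed the read minimum through their LPS reads alone, so that they could only be called higher. The other 8 found members held 10 reads untreated and 83 after LPS in all. The median log2 ratio of the 8 compared was 4.64, or 3.84 when genes with 0 untreated reads are placed at their lower bound. That placing changed the median of 3 further lists, those of CXC chemokines, stromal markers and genes the study names. Beside Il1a, Il12b and Il1b these were the granulocyte growth factor Csf3 (0 and 105 reads, at least 17.1-fold), Tnf (44 and 828 reads, 3.17, 2.77 to 3.68), Il27, Tnfsf10 and Osm. Osm had the smallest ratio, with 6 and 48 reads (1.78, 0.74 to 3.49), an interval that reaches below 2-fold. Il6, a cytokine of the acute phase, had 0 and 11 reads and Il10, the main anti-inflammatory cytokine, 1 and 16, so that neither met the read minimum. Il1rn, which blocks the interleukin-1 receptor, was the most counted of all listed cytokines and rose from 109 to 2845 reads (3.66, 3.40 to 3.97).

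Of 9 CXC chemokines compared, 6 were higher, against 14.9% of all genes, and none lower, with a median of 4.70 (3.36 with bounds), but 5 of the 9 had at most 3 untreated reads and could only be called higher. The neutrophil attractants Cxcl2 (3 and 401 reads, 5.62, 4.47 to 8.32), Cxcl3 (0 and 63) and Cxcl1 (0 and 52) rose together with the interferon-responsive ligands of CXCR3, Cxcl9 (0 and 169), Cxcl10 (23 and 757) and Cxcl11 (0 and 116). The Cxcl10 region overlaps another gene's exon. Pf4, Cxcl16 and Cxcl14 stayed within 2-fold at 0.76, -0.11 and -0.95. Among the CC chemokines 7 of 8 were higher, but 2 of the 8 had at most 3 untreated reads and could only be called higher. Ccl5 went from 4 to 657 reads (6.01, 4.97 to 8.21) and Ccl22 from 1 to 263 (6.01, 4.52 to 12.32), whereas Ccl9, which was abundant already in untreated cells, went from 850 to 4023 (1.21, 1.11 to 1.32). Ccl6, at -0.15, was the member within 2-fold.

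The receptors did not move as 1 group. For this and the later lists, calls are read beside the 14.9% of all genes that were higher and the 12.6% that were lower. In every list, a compared member with at most 3 untreated reads could only be called higher. In the list of cytokine, chemokine and growth factor receptors 8 of 24 were higher, 8 lower, and the median was -0.03. Tnfrsf1b, the second TNF receptor, rose from 916 to 4846 reads (1.37, 1.27 to 1.48) and had the most LPS reads of the 10 most counted genes, together with higher Ccrl2, Il4ra, Ifnar2 and Csf2rb. Lower were Cxcr4, the fractalkine receptor Cx3cr1 (86 and 39 reads, -2.15, -2.76 to -1.61), the TGF-β receptors Tgfbr1 (318 and 150, -2.11, -2.40 to -1.83) and Tgfbr2, and both chains of the interleukin-6 receptor, Il6st and Il6ra. The M-CSF receptor Csf1r had 611 and 676 reads (-0.88, -1.04 to -0.72). Of the Toll-like receptors and LPS co-receptors 5 of 15 had enough reads. Cd14 rose (37 and 344 reads, 2.15, 1.70 to 2.72), and Tlr13, a sensor of bacterial ribosomal RNA, and Cd180, a relative of TLR4, fell (-2.54 and -2.09). Tlr4 itself had 13 and 11 reads.

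Scavenger, lectin and phagocytic receptors split likewise, with 8 of 23 higher and 4 lower. Clec4e, which binds mycobacterial cord factor, rose from 17 to 1393 reads (5.24, 4.64 to 6.11), Trem1, an amplifier of TLR signals, from 2 to 232 (5.25, 3.96 to 8.88), and the scavenger receptors Marco and Msr1 by log2 ratios of 3.52 and 2.05. The lower ones were Trem2, a lipid-sensing receptor (156 and 106 reads, -1.58, -1.96 to -1.22), Itgb5, Stab1 and the β-glucan receptor Clec7a. Trem1 and Trem2, related receptors that share the adaptor Tyrobp, thus lay on opposite sides, while Tyrobp had 54 and 90 reads (-0.30).

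Signalling components were next. Among NF-κB subunits and inhibitors 11 of 16 were higher and none lower (median 1.43). Nfkbia, the IκBα inhibitor, rose from 37 to 498 reads (2.68, 2.24 to 3.24), the deubiquitinase Tnfaip3 from 41 to 743 (3.12, 2.70 to 3.64), and Nfkbiz, Nfkbie, Tnip1 and Tnip3 by log2 ratios of 2.32 to 2.97. The subunits Nfkb2 (3.67), Nfkb1 (1.29) and Relb (1.27) were higher, but Rela had 131 and 336 reads (0.32, 0.03 to 0.63). Of the TLR adaptors and kinases 7 of 20 were higher and none lower, led by Traf1 (0 and 172 reads) and by Irak3, a kinase-dead inhibitor of the pathway (20 and 326 reads, 2.93, 2.35 to 3.73). In the list of SOCS proteins and other brakes 4 of 8 were higher and 2 lower. Socs1 (2 and 280 reads) and Socs3 stood far above Socs4, Socs5 and Socs6, at -0.14, -0.40 and -1.10. Of the MAP kinases and their phosphatases 5 of 17 were higher, against 14.9% of all genes, and 2 lower, near the 12.6% of all genes. The phosphatases Dusp2, Dusp16 and Dusp1 (17 and 148 reads, 2.02, 1.36 to 2.91) rose and Dusp3 (537 and 414, -1.40, -1.59 to -1.22) fell, while Mapk14, which encodes p38α, had 371 and 634 reads (-0.26, -0.44 to -0.07).

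Proteins that bind AREs or degrade mRNA were within 2-fold in 17 of 22 cases, near the share of all genes (3609 of 4981), and 16 under the other 3 scalings. The endonuclease Zc3h12a was higher (10 and 131 reads, 2.55, 1.76 to 3.78). Zfp36, which encodes TTP, had 178 and 595 reads (0.71, 0.47 to 0.96), Elavl1, which encodes HuR, 74 and 198 (0.38), and Cpeb4 121 and 258 (0.06, -0.25 to 0.39) in a region with 17 AUUUA. In the knockout Inputs the Cpeb4 region still held 69 and 79 reads, which does not check the deletion, since the part of the gene removed in these mice is not stated in the sources used here. The TTP relatives Zfp36l2 (323 and 87 reads, -2.91, -3.28 to -2.58) and Zfp36l1 (331 and 141, -2.26, -2.56 to -1.97) were both lower, so that the 3 compared members of this family did not move alike. The Zfp36l1 region overlaps another gene's exon.

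Interferon-stimulated antiviral genes were the longest list, with 39 of 44 higher, none lower and all 44 above 0 (median 2.10), where 8 had at most 3 untreated reads. Rsad2, which makes a chain-terminating nucleotide, rose from 121 to 2987 reads (3.58, 3.33 to 3.87), Mx1 from 11 to 594 (4.60, 3.87 to 5.73), Ifit1 from 20 to 584 (3.77, 3.20 to 4.56), and the ubiquitin-like modifier Isg15 from 2 to 172 (4.82, 3.52 to 8.45). The 5 within 2-fold were Parp14, Slfn2, Ly6e, Bst2 and Trim25, which ran from 0.96 down to 0.11. All 8 guanylate-binding proteins and immunity GTPases compared were higher (median 3.41), 3 of them with at most 3 untreated reads, from Gbp5 at 6.71 to Irgm2 at 1.76. Of the interferon regulatory factors, STATs and JAKs 5 of 12 were higher, among them Jak2, Stat2 (87 and 645 reads, 1.85), Stat3 and Tyk2, whereas Irf1 was at 0.84. In antigen presentation 7 of 13 were higher, and these were the immunoproteasome genes Psmb8, Psmb9, Psmb10 and Psme1, the peptide transporters Tap1 and Tap2, and H2-Ab1, while the class I heavy chains H2-K1 and H2-D1 were at 0.10 and -0.46. Members of the Gbp, Oas, Phf11, Ifi and H2 families resemble each other closely, and their counts are uncertain where reads could align to more than 1 of them.

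The sharing of an upstream sequence was looked at in the promoters, taken from RefSeq for GRCm38.p6 as 250 bases before and 50 after each gene start. The interferon-stimulated response element was searched on both strands as GAAA, any 2 bases and GAAA again. It was found in 3.99% of all 27025 genes with a promoter there, in 4.14% of the 3909 compared genes that matched by symbol, in 10.0% of 568 higher genes (95% Wilson interval 7.83 to 12.8%) and in 2.85% of 491 lower genes (1.71 to 4.73%). Of the antiviral list 18 of 34 matched genes held it, and of the guanylate-binding and GTPase list 7 of 7. Both lists are interferon targets by their making, so that these counts are a description. The 5 genes of both lists with the largest rise among those that held a match are shown as 30 bases of the gene's own strand with the match in capitals.
Gbp5: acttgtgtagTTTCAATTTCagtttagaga
Gbp2: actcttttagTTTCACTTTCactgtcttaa
Isg15: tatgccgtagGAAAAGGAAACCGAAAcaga
Gbp7: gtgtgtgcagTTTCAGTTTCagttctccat
Gbp3: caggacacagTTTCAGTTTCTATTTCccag
The matches begin 165 (Gbp5), 59 (Gbp2), 78 (Isg15), 53 (Gbp7) and 45 (Gbp3) bases before the gene start. In the same order, the 30-base windows shown lie at chr3:142496759-142496788, chr3:142620594-142620623, chr4:156200877-156200906, chr3:142530273-142530302 and chr3:142559989-142560018, on the plus strand except for Isg15 on the minus strand. A consensus of the κB site was found in 5.14% of all promoters, 266 of the 3909 compared genes, 6.32% of those within 2-fold (5.48 to 7.27%), 10.7% of the higher genes (8.45 to 13.6%) and 5.09% of the lower genes (3.47 to 7.41%). A match of letters is not shown to be a bound site.

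Transcription factors of the macrophage lineage were higher in 2 of 15 cases, near the 14.9% of all genes, and lower in 4, against 12.6% (median -0.51). Cebpb, known for its induction in inflammation, rose from 185 to 905 reads (1.25), and Cebpa, which drives myeloid differentiation, fell from 415 to 132 (-2.68, -2.98 to -2.40). Mef2c (86 and 19 reads, -3.15, -4.01 to -2.48) and Bhlhe41 were lower too. Spi1, which encodes the master regulator PU.1, had 178 and 396 reads (0.12, -0.14 to 0.39). Of the immediate-early and AP-1 factors 4 of 12 were higher, Maff, Ier3, Fosl2 and Junb, and none lower.

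Genes of arginine, nitric oxide, itaconate and redox metabolism were higher in 9 of 14 cases (median 1.84), among them Ass1 (4 and 113 reads), which recycles citrulline to arginine, and the mitochondrial superoxide dismutase Sod2 (133 and 2490, 3.19, 2.94 to 3.46). Of these 14, 3 had at most 3 untreated reads and could only be called higher. In the glycolysis and hypoxia list 10 of 25 were higher, 1 was lower, Pfkfb4 (-1.06), and 23 lay above 0 (median 0.87). Under the other 3 scalings 11, 12 and 13 were higher and none lower. The rises were in glucose and lactate transporters, hexokinases and phosphofructokinases, and in regulators of the hypoxia response: Slc2a6, Slc2a1 (59 and 773 reads, 2.66, 2.30 to 3.09), Slc16a3, Hk1, Hk2, Pfkl, Pfkfb3 (95 and 2575, 3.72, 3.43 to 4.04), Egln3, Bnip3 and the transcription factor Hif1a (37 and 558, 2.85, 2.40 to 3.41). Of the later enzymes of the pathway, Pgk1 at 0.51, Ldha at 0.47 and Pkm at -0.13 stayed within 2-fold in wild type. Gapdh lay just within 2-fold and passed it under the other 3 scalings. In the knockout Pgk1 was at 1.11, and 16 of the 25 genes of the list were higher, against 10 in wild type. In the list of tricarboxylic acid cycle enzymes, which holds cytosolic relatives, none of 12 was higher and 2 were lower, near the 12.6% of all genes. Both lower ones are cytosolic and no members of the mitochondrial cycle: Idh1, an isocitrate dehydrogenase (66 and 33 reads, -2.01, -2.68 to -1.41), and the aconitase Aco1 (-1.11), whose call was lost under TMM scaling.

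Genes of cholesterol were read as a list of synthesis and uptake and a list of efflux and lipid handling. Of those for synthesis and uptake 6 of 16 were higher and 1 lower (median 0.45), the higher ones including Hsd17b7 (19 and 221 reads, 2.44, 1.83 to 3.27), Mvd, Hmgcs1 and Idi1. Of those for efflux and lipid handling 3 of 16 were higher and 4 lower (median -0.59), against 14.9% and 12.6% of all genes. The lower ones were the exporter Abcg1 (73 and 39, -1.92, -2.53 to -1.35), the lysosomal lipase Lipa (1057 and 595, -1.86, -2.01 to -1.71), Npc1 and Soat1. The higher ones were the triglyceride and fatty acid enzymes Dgat2 (1 and 138 reads), Acsl1 (45 and 695) and Scd2. Whether the lists differ from each other was not tested.

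The complement and acute-phase list held 11 higher and 2 lower genes of 20. Of the 20, 6 had at most 3 untreated reads and could only be called higher. Beside Lcn2 the rises held the matrix proteases Mmp13 (2 and 529 reads), Mmp14 and Mmp9, thrombospondin Thbs1 (36 and 1322, 4.13, 3.69 to 4.69), the complement factor Cfb and the acute-phase protein Saa3. Plau and Gas6, a bridging ligand for apoptotic cells (146 and 31 reads, -3.23, -3.87 to -2.70), fell, and the C1q chains C1qa, C1qb and C1qc lay between -0.71 and -0.17. Of the costimulatory molecules 4 of 7 were higher, including Cd40 (9 and 610 reads, 4.90, 4.12 to 6.19) and the checkpoint ligand Cd274 (71 and 1844, 3.65, 3.33 to 4.03). Lower were 2 of the 7, or 1 under the other 3 scalings, among them Cd83 (51 and 31, -1.73, -2.44 to -1.08). In the list of inflammasome and cell death 7 of 15 were higher, among them Nlrp3 (14 and 282) and the caspase-8 inhibitor Cflar (220 and 2327, 2.37, 2.17 to 2.58), and 3 lower, with the pro-apoptotic Bcl2l11 at -2.06 (-2.34 to -1.79).

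Cell cycle genes were lower in 5 of 12 cases, against 12.6% of all genes, and higher in 3. The S-phase factors E2f2 (92 and 11 reads, -3.98, -5.15 to -3.19), Mcm3 and Mcm6 fell with Cdk6 and Ccnd1 (540 and 229, -2.26, -2.50 to -2.04), and the inhibitor Cdkn1a rose (443 and 2045, 1.17, 1.03 to 1.33). The D-type cyclins moved apart, as Ccnd2 went from 13 to 1494 reads (5.71, 5.04 to 6.73) and Ccnd3 from 89 to 665 (1.86), though all 3 cyclin regions overlap another gene's exon. The 27 listed members under the read minimum, mostly genes of S phase and mitosis, held 248 reads untreated and 96 after LPS in all (-2.39, -2.75 to -2.05). Without regions over 0.5 reads per base, 5 of 9 cell cycle genes were lower and 1 higher, with a median of -1.34 in place of -0.45. This filter uses the denser of the 2 wild-type libraries, and the LPS library is the larger, so it drops mainly higher genes. Over all genes it left 620 of 742 higher and 618 of 630 lower ones. The shift of the median is thus partly set by the filter. Ccna2, the S and G2 cyclin, had 38 reads untreated and 0 after LPS, at least 25.9-fold lower.

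**Figure D3:**
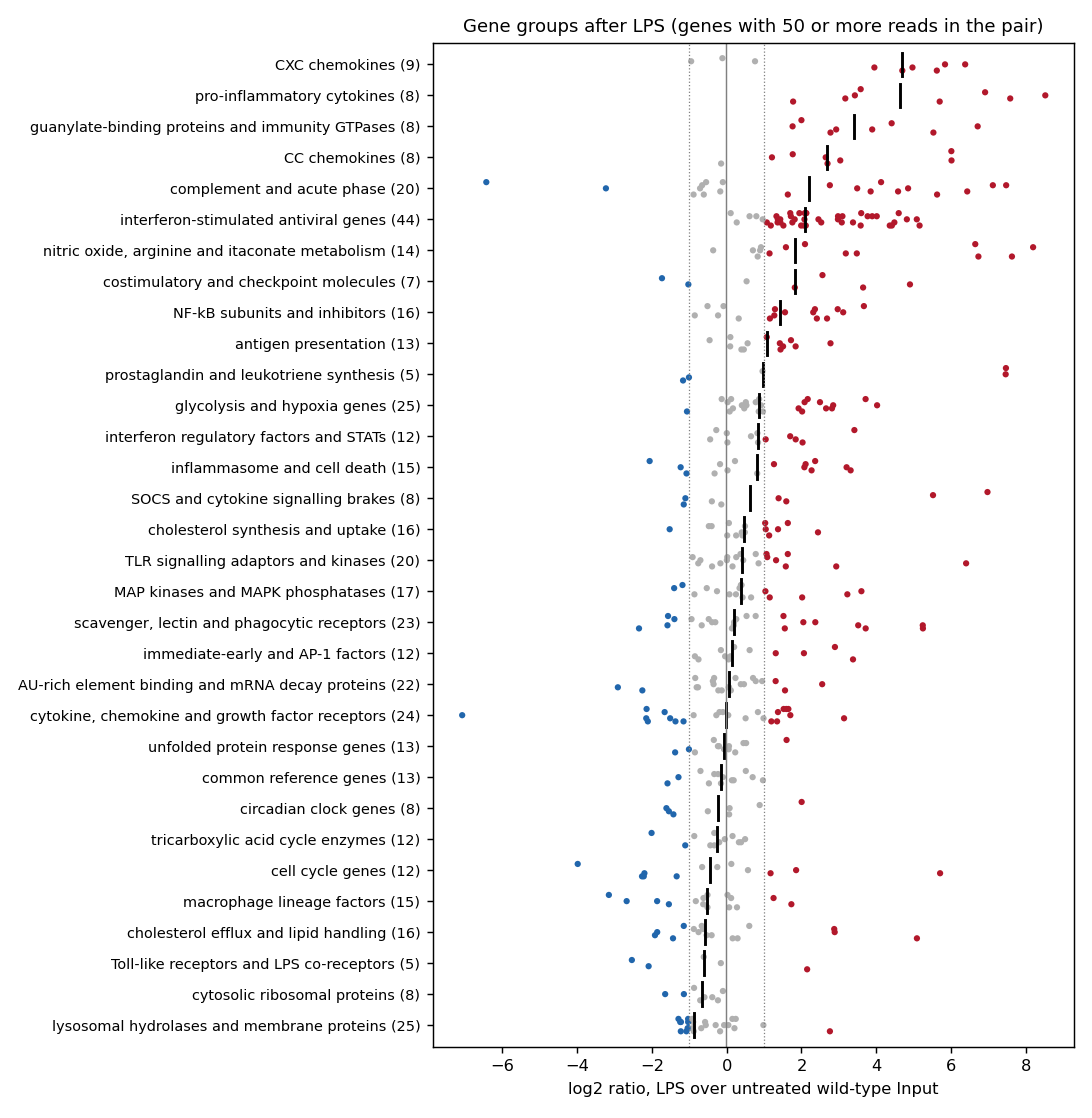
Log2 ratio of LPS over untreated wild-type Input for each compared gene (points) of the gene lists with at least 5 compared members, given in brackets; macrophage markers and the genes the study names are not drawn. Red points are higher and blue points lower past 2-fold (dotted lines), grey points lie within it, black bars are list medians and the grey line is the median of all 4981 genes; genes with 0 reads in a library are drawn with 1 read added. Cytokine, chemokine, guanylate-binding and antiviral lists lie to the right, and the lysosomal list to the left.

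The 10 genes with the most reads in the pair spanned a narrower range than the induced ones. Ccl9 and Tnfrsf1b were higher and Ctsb was lower past 2-fold, but the call of Ctsb was lost under the other 3 scalings, which also put Sdc4 past 2-fold. Within 2-fold lay the heparan sulfate proteoglycans Sdc4 (908 and 3554 reads, 0.94) and Sdc3 (1916 and 4597, 0.23, in a region that overlaps another gene's exon), the chloride intracellular channel protein Clic4 (1074 and 3803, 0.79) and Gas7 (1504 and 4315, 0.49). In the knockout Sdc4 was at 1.75 and Clic4 at 1.07, both past 2-fold. The other 3, Sirpa, Slc6a6 and Lyz2, lay between -0.98 and -0.89.

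Lysosomal hydrolases and membrane proteins had a median of -0.88, with 9 of 25 lower and 1 higher, the protease activator Ctsc (12 and 179 reads, 2.76, 2.03 to 3.85). Several of the lower ones had nearly the same number of reads in both libraries. Ctsb, the cathepsin B gene, had 3087 and 3086 reads (-1.03, -1.10 to -0.96), Ctsd 1977 and 1991 (-1.02) and Psap 2034 and 1969 (-1.08). In the knockout these genes were at -0.61, -0.49 and -0.51. Under the other 3 ways to scale the libraries 4 or 5 of the 25 were lower, with medians between -0.81 and -0.74. Sirpa and Slc6a6, which are no lysosomal genes, showed the same near-equal reads (2429 and 2586, and 2195 and 2276).

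Equal reads in both libraries give a log2 ratio of -1.03 in wild type, because the LPS library was 2.04 times the size of the untreated one, and -0.18 in the knockout. The authors had removed duplicate reads, which limits how many reads a short region can hold. The 24 genes with over 1 read per base in the sparser wild-type library had a median of -0.73 in wild type and -0.22 in the knockout, against 0.07 and -0.13 for the 3046 genes with up to 0.05 reads per base. These groups were formed from the wild-type reads that give the ratio, and 600 of the 742 higher genes lie in the sparsest one. The wild-type trend is thus partly built in, and the knockout, which formed no group, does not check it. Lyz2, the macrophage lysozyme, was the densest of the 10 most counted genes at 3.09 reads per base after LPS, and had 2197 and 2429 reads (-0.89, -0.97 to -0.80) in wild type and 1977 and 1983 (-0.18) in the knockout. Without the regions over 0.5 reads per base 4 of 16 lysosomal genes were lower, with a median of -0.72. That filter likewise rests on the wild-type reads that give the ratio. The part of read density in these ratios was not tested. Among induced genes the density after LPS was 3.30 reads per base for Ccl5, 2.14 for Il1b and 1.04 for Ptges.

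**Figure D4:**
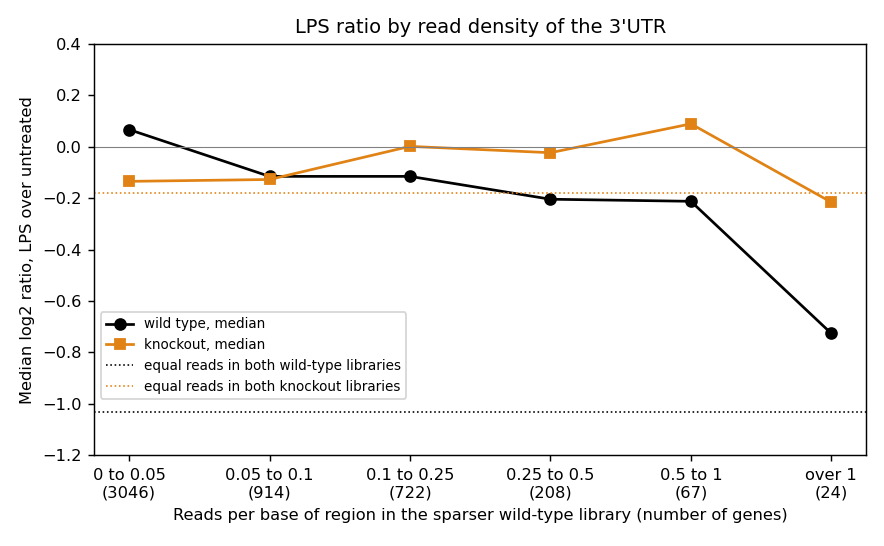
Median log2 ratio of LPS over untreated Input (y axis) for genes grouped by reads per base of their region in the sparser of the wild-type libraries (x axis, number of genes in brackets), in wild type (circles) and knockout (squares). Dotted lines mark the ratio of equal reads, -1.03 in wild type and -0.18 in the knockout. Above 1 read per base the wild-type median fell to -0.73. The groups rest on the same wild-type reads as the ratio, so the wild-type trend is partly built in.

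The label of the cells was read against marker genes. All 15 macrophage markers were found and 14 had enough reads, with 2 higher (Cd14 and Fcgr1) and 1 lower, Lgals3, which encodes galectin-3 (146 and 93 reads, -1.68, -2.07 to -1.30). Adgre1, the F4/80 antigen, had 56 and 170 reads and Mpeg1, a pore-forming protein of macrophages, 1386 and 1778. The markers of neutrophils, T and NK cells and B cells held between 3 and 29 reads per library in all, with none compared. Dendritic cell markers summed to 156 and 389 reads, of which Bst2, also an interferon target, held 151 and 373, and Ccr7 held 0 in both. Of the stromal and endothelial markers Pdgfrb (0 and 67 reads, at least 10.9-fold) and Kdr (7 and 83, 2.36, 1.43 to 3.90) were higher after LPS, as they were in the knockout (0 and 65, 10 and 105 reads). The defining Col1a1 and Cdh5 held 0 reads untreated and 1 and 2 after LPS, Pecam1 0 and 12, and Dcn, Pdgfra, Lepr and Cxcl12 held 0 in both. The part of such cells in these 2 rises was not tested.

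The remaining lists held few compared genes or few calls, beside 14.9% higher and 12.6% lower among all compared genes. Of 8 cytosolic ribosomal proteins none was higher and 2 were lower, Rpl22 (120 and 78 reads, -1.65) and Rpsa (-1.14). Of 13 genes of the unfolded protein response 1 was higher, the chaperone Hspa5 (14 and 92 reads), and 2 lower, the stress sensors Atf6 (-1.38) and Ern1 (-1.01), of which Ern1 lost its call under the other 3 scalings. Of 8 circadian clock genes Nfil3, a repressor of the clock, was higher (9 and 81 reads, 2.01) and Nr1d2, Bhlhe41 and Tef were lower, at -1.42, -1.55 and -1.61. Of the DNA repair and licensing list 2 had enough reads, with Parp1 at -1.14 and Gins2 at -0.27. The erythroid markers Hba-a1 and Gata1 held 0 reads in both libraries. Among the 18 compared genes that the study names, a list chosen with these cells in view, 13 were higher. Of the 18, 6 had at most 3 untreated reads and could only be called higher. Txnip, an inhibitor of thioredoxin, was lower at 427 and 421 reads (-1.05), a call that was lost under the other 3 scalings. Of 13 common reference genes compared none was higher (1 under the other 3 scalings, Gapdh, at 0.97 here) and 2 were lower, Gusb and Tfrc, with Actb at -0.47 (-0.57 to -0.38) in wild type and 0.11 in the knockout.

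The AREs shown above were then counted across all regions. At least 2 AUUUA were found in 59.2% of the 742 higher genes (95% Wilson interval 55.6 to 62.6%), 55.2% of the 630 lower genes (51.3 to 59.1%) and 55.3% of the 3609 others (53.6 to 56.9%). The higher genes had shorter regions, with a median of 1270 bases against 1950 for the lower ones and 1544 for the others. Compared genes were then put into 3 groups of like number by region length. In the group with the shortest regions, up to 1028 bases, 2 or more AUUUA were found in 31.6% of 301 higher genes (26.6 to 37.0%), 12.3% of 155 lower genes (7.99 to 18.4%) and 18.9% of 1204 others (16.7 to 21.2%). In the middle group, up to 2192 bases, the shares were 66.9% (60.8 to 72.6%), 51.0% (44.0 to 58.0%) and 58.0% (55.2 to 60.7%), and in the longest group 91.5%, 81.6% and 89.6%. The longer motif UUAUUUAUU was found in 10.6% of higher, 8.25% of lower and 8.45% of other genes. CPEs predicted by the authors were listed for 37.3% of higher genes (33.9 to 40.9%), 41.4% of lower genes (37.6 to 45.3%) and 38.7% of the others (37.1 to 40.3%), and in the shortest group for 21.6%, 18.1% and 19.0%. The intervals treat genes as independent draws, which they are not.

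**Figure D5:**
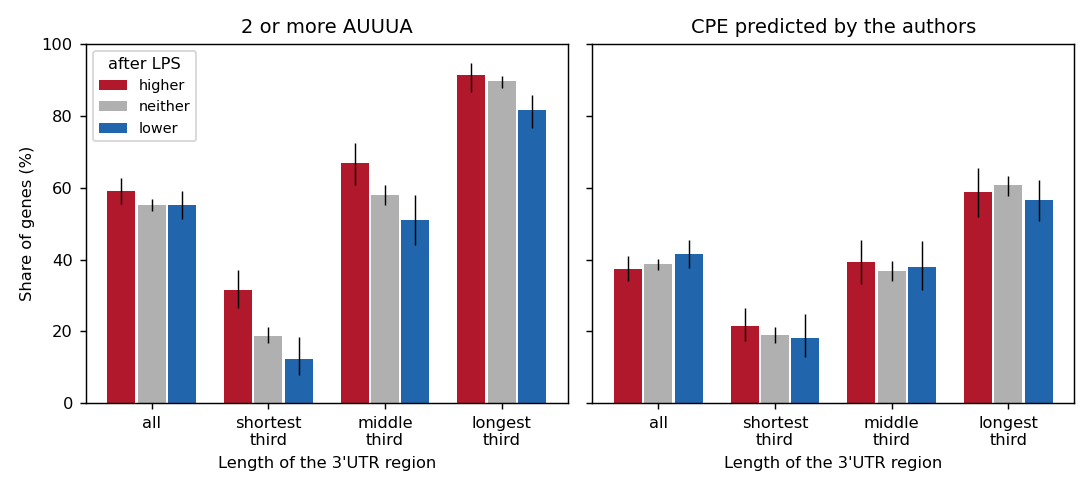
Share of genes (%) with at least 2 AUUUA (left) and with a CPE predicted by the authors (right) among genes higher, within 2-fold (neither) and lower after LPS, over all compared genes and within 3 groups of region length of like number (shortest, middle and longest). Error bars are 95% Wilson intervals. In the shortest group the AUUUA share is 31.6% for higher and 12.3% for lower genes.

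Some genes had more than 1 annotated 3′UTR region, a few of them very short pieces, and whether these are separate ends of the mRNA was not tested. For 154 genes the region used and at least 1 further region that did not overlap it both had 50 or more reads, giving 170 pairs of regions. In no pair was 1 region higher and the other lower past 2-fold, but the region used was called in only 39 of the 170 pairs. Some pairs adjoin, as in Mapk3 and Xylt2, where 1 read can overlap both regions, so that their ratios are not independent. The ratios differed by more than 2-fold with intervals apart in 9 pairs, of which the following were picked after their values were seen. Rprd1b, a regulator of RNA polymerase II, had a log2 ratio of 0.03 (-0.56 to 0.70) in the region used, chr2:158075080-158078207, and 2.18 (1.48 to 3.18) in a downstream one with 14 and 138 reads, chr2:158131159-158132297, with -0.67 and 2.63 in the knockout, though the downstream region overlaps another gene's exon. Syngr1, a membrane protein of vesicles, had a log2 ratio of -4.16 (-5.38 to -3.34) in the region used, chr15:80116077-80119501, and of -1.80 (-2.72 to -0.97) in an upstream one, chr15:80113259-80113441. Cflar, whose region chr1:58753923-58758884 gave the ratio above, had 0 and 54 reads in a shorter upstream region, chr1:58732363-58733227. In 2 of the 9, Ccdc167 and Slc25a39, the knockout values of both regions lay close together (0.87 and 0.78, -0.31 and -0.23). Coordinates are those of the files, mm10.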

How the data were processed

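RNA of lysates of untreated and LPS-treated wild-type BMDMs (Input) was sequenced, 1 library per side, with the 2 lanes summed in 1 column by the authors. Per the study's methods, the authors aligned 100-base single-end reads to mm10 with Bowtie2 2.2.2 in local mode (the submitters' processing notes also name MACS 1.4.2), removed duplicates and counted overlaps with Ensembl 3′UTR regions. The deposited counts are these raw reads per region, the deposited RPKM values are reads per kilobase of region and per library total set by the authors, and the deposited region width is in bases. All 4 tables held the same counts. The authors' comparison columns (p-values, log2 fold changes, peak scores) were not used. The 4 Input groups were mapped from column names, and 495 of 31117 rows without a symbol, holding about 1% of reads, were left out.

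For each symbol the region with the most reads over the 8 libraries was kept. Ratios used each library's sum over rows with a symbol (929054 and 1897360 reads in wild type), 1 added read and a minimum of 50 reads in the pair, so that precision is set by the reads of each gene. With 1 library per side nothing was tested. Named genes were the 15 largest rises and falls by the near end of the 95% interval (regions also listed under another symbol left out), the 10 most counted genes, the genes the study names, and in each list up to 4 of the largest changes each way with examples within 2-fold, and further members were named after their values were seen. Members and lists were chosen with earlier results of these data known. Motifs were read from GRCm38.p6, whose chromosome lengths hold all regions, and of the 4981 compared regions 4538 lay inside 1 exon of their transcript in GENCODE M21 and 837 overlapped an exon of another gene. Alternatives covered scaling (library totals, median of ratios, TMM by edgeR 4.0.16), read minimum, added reads, fold and region choice. Ratios and intervals were tested on simulated data with known changes. These data held counting error only, so they cannot show how libraries or cultures vary. Python 3.11.15, scipy 1.17.1 and R 4.3.3 were used. Results on some genes are not reported here.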

Additional observations from a re-analysis of the deposited data

How the results depend on the processing

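Each alternative changed 1 choice, except that UUAUUUAUU was counted from 1 copy in place of 2. The median log2 ratio of all genes moved by 0.10 under median-of-ratios factors and by 0.14 under TMM factors, and calls near 2-fold changed with them, as given beside the genes above. The gene lists for which no such change is given gained or lost at most 2 calls. Higher and lower genes numbered 1206 and 1431 at a minimum of 10 reads, 1452 and 2890 without one, 306 and 162 past 4-fold, and 432 and 311 with the whole interval past 2-fold, and lower genes 1048 at 20 reads. Higher calls made up 54.1% of all calls as reported, 33.4% without a read minimum and 65.4% past 4-fold. Higher genes also higher in the knockout were 81.2%, 83.8% and 80.9% under library totals, median of ratios and TMM, 68.9%, 71.8%, 84.1% and 64.3% at 10, 20, 100 and no minimum reads, 84.4% by the whole interval and 73.8% without regions over 0.5 reads per base, an alternative chosen after seeing the data, as was leaving out overlapping genes. Lower genes also lower in the knockout were 78.8% under library totals and under median of ratios, and 73.6%, 76.1% and 63.2% at 10, 20 and no minimum reads. The AUUUA share of higher genes was 52.8%, 55.0% and 51.1% at 10, 20 and no minimum reads and 10.6% for UUAUUUAUU; that of lower genes was 49.3% and 42.1% at 10 and no minimum reads, 62.3% past 4-fold, 59.8% by the whole interval and 8.25% for UUAUUUAUU. The CPE share of lower genes was 35.8% and 30.5% at 10 and no minimum reads and 49.4% past 4-fold. Why they moved was not tested. The remaining 77 values of these results stayed within 1.5 times the count or within the interval reported. Genes with few untreated reads have wide intervals, which limits their ratios.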

Other observations

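Of the 495 regions without a gene symbol, which entered no comparison above, 106 had at least 50 reads in the wild-type pair, and 18 of these were higher and 13 lower past 2-fold after LPS.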
